A study of Homo sapiens with 16 samples.

Results

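The genes described here are 50 genes of the G2 phase and mitosis, listed by symbol for their known roles: cyclins and kinases that start mitosis, the spindle checkpoint, the kinetochore, regulators of the anaphase-promoting complex (APC/C), and spindle and cytokinesis factors. They are 50 of 56969 genes in the deposited table, and 51 rows carry their symbols because CKS1B has 2 rows, of which the one with the higher mean was used. The libraries were made from HepG2, a line of human hepatoma cells kept in culture: 8 cultures transfected with HCF-1 siRNA and 8 transfected with control siRNA. The siRNA was delivered with siPORT NeoFX as the cells were plated and again 2 days later, RNA was taken 2 days after that, and the labels call the cultures of a group biological replicates. HCF-1, encoded by HCFC1, is a cofactor that sits at promoters through DNA-binding proteins such as THAP11 and ZNF143, and it is known from other cells to be needed for passage through the cell cycle.

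Entry into mitosis is driven by CDK1 bound to cyclin A2 or a B-type cyclin, with CDC25 phosphatases removing the inhibitory phosphates of CDK1. The kinetochore, built on the CENPA nucleosomes of the centromere, ties chromosomes to spindle fibres, and the checkpoint keeps the APC/C off until all are attached. The APC/C with CDC20, and later with FZR1, marks securin and the cyclins for destruction. Genes of this program are switched on late in the cell cycle by the B-MYB and FOXM1 factors acting with the MuvB complex at promoter sequences called CHR elements, and the DREAM complex keeps the same sequences silent in resting cells.

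Reads assigned to genes, recovered from the deposited values, numbered 25098840 to 43186890 per library (median 33710664) after HCF-1 siRNA. After control siRNA they numbered 21030830 to 32820459 (median 27060648). Reads not assigned to a gene are not in these numbers. The part of this gap in depth in the values below was not tested. HCFC1 itself was at 65.4% of the control mean in HCF-1 siRNA libraries, with a log2 fold change of -0.61 ± 0.07 (SE; limma adjusted p = 4.52e-06), so the message was lowered and not removed. Of 9 hepatocyte markers each was detected in all libraries, with a summed level of 739690 to 896360 normalized counts in HCF-1 siRNA libraries and 622100 to 681960 in control siRNA libraries. The hepatocyte markers thus moved with the treatment, and their part in the changes below was not tested. Of the 4 blood markers, PTPRC and CD3E stayed under 10 normalized counts in all libraries, while LYZ, was at 27704 to 33964 in HCF-1 siRNA libraries and 26577 to 31449 in control siRNA libraries. Values below are normalized counts, which are reads divided by a size factor for each library. Log2 fold changes are HCF-1 siRNA over control siRNA, 8 libraries against 8, on log2(normalized count + 1), given with their SE, and adjusted p-values come from limma with Benjamini-Hochberg adjustment over all 16081 genes with a mean of 10 or more.

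All 50 genes passed that filter. After HCF-1 siRNA 12 rose, 11 fell and 27 did not pass an adjusted p of 0.05. Of all genes tested 36.6% were called, 18.2% higher and 18.3% lower. The shares among the 50, 24% higher and 22% lower, thus lay close to those of the whole table. The number called higher was 7 without HCF-1 siRNA replicate 8 and 7 without control siRNA replicate 7. Their median log2 fold change was 0.00, with a median of 0.01 over all genes tested, and 25 of the 50 had a positive and 25 a negative value. The per-library median of the 50, set against the control mean, ran from -0.06 to 0.06 in HCF-1 siRNA libraries and from -0.07 to 0.08 in control siRNA libraries. The list as a whole was centred on 0, with single genes called in either direction. RNA of a mixed culture was measured, so fewer cells in mitosis and less RNA per cell cannot be told apart for any of these genes.

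**Figure D1:**
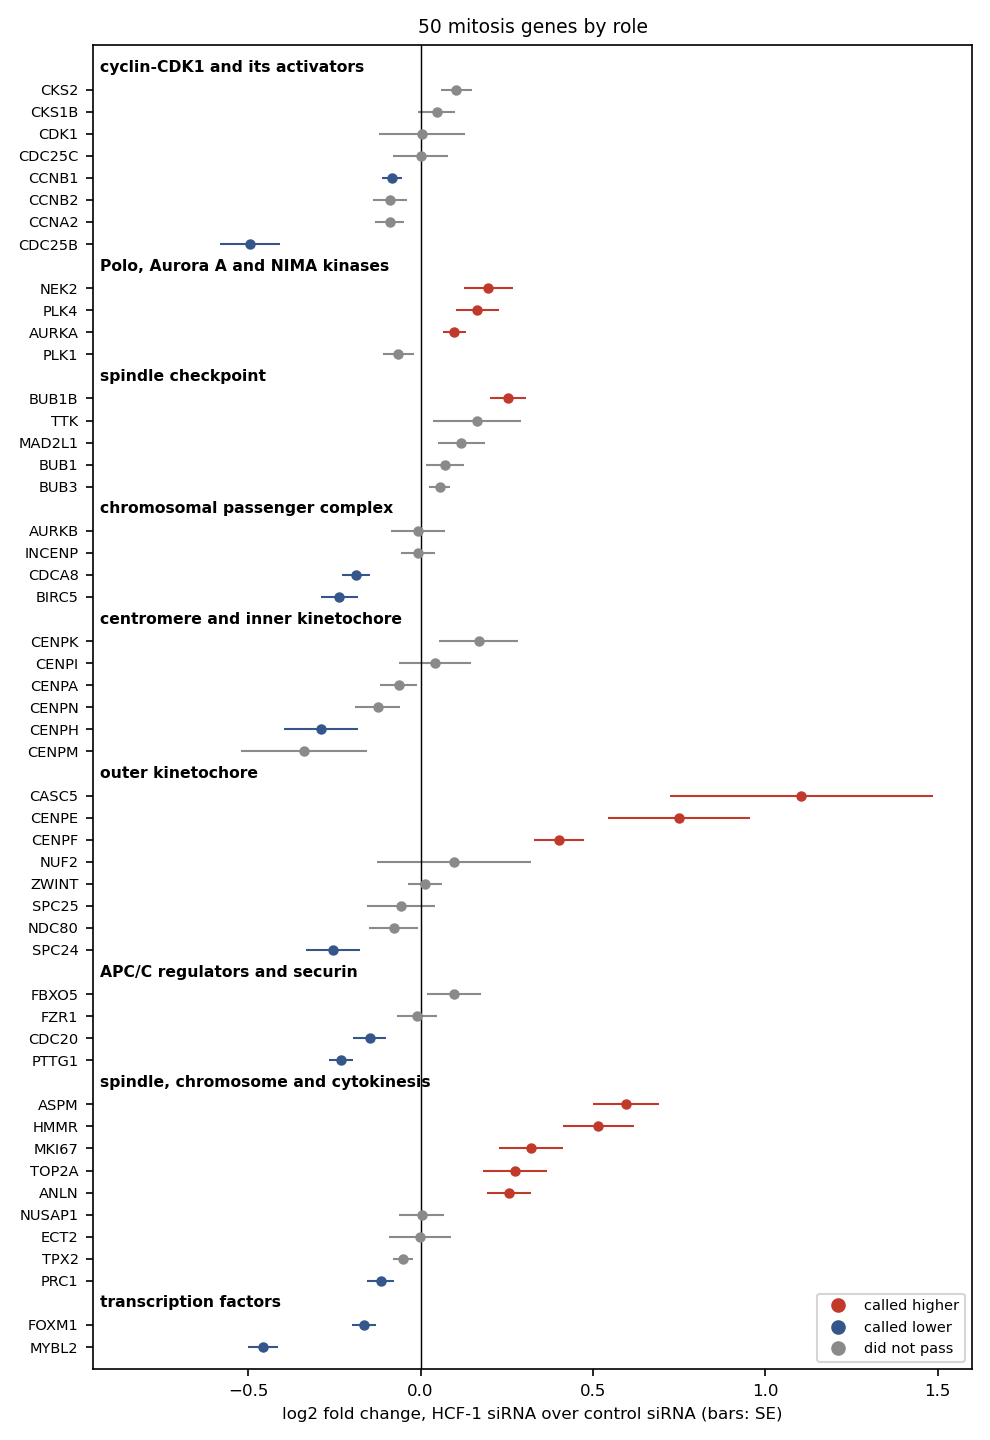
Log2 fold change of HCF-1 siRNA over control siRNA (horizontal axis; bars are the SE) for the 50 genes (vertical axis), sorted within 9 roles; red points were called higher, blue points lower and grey points did not pass. Large increases sit in the outer kinetochore and in the spindle, chromosome and cytokinesis group, up to 1.11 for CASC5, and the largest decreases are those of CDC25B at -0.50 and MYBL2 at -0.46.

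The size of the changes was modest. A change of at least 1.25-fold was called for 7 genes, CASC5, CENPE, ASPM, HMMR and CENPF higher and CDC25B and MYBL2 lower, and one of at least 1.5-fold for CASC5, CENPE and ASPM. Among all genes tested 21.1% were called with at least 1.25-fold and 8.9% with at least 1.5-fold changes. Values of the 2 groups did not overlap for HMMR, which was higher, and for PTTG1, FOXM1 and MYBL2, which were lower; among all genes tested 4.59% were higher and 5.23% lower without overlap. The 50 genes had a median SD within a group of 0.14 on the log2 scale against 0.21 over all genes tested, and CCNB1 had the lowest SD of them, 0.04. Some of the 50 were looser: the SD was 0.82 for CASC5, higher than that of 92.4% of genes tested, 0.49 for NUF2, 0.46 for CENPE and 0.40 for CENPM. Calls for 12 of the genes stood in each of the 26 other settings tried: BUB1B, CENPE, CENPF, HMMR, ANLN and ASPM higher, and CDC25B, BIRC5, CDCA8, PTTG1, FOXM1 and MYBL2 lower. At the other end 24 of the 27 genes that did not pass were called in none of them.

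The promoters of these genes were read because many of them answer to the same late cell cycle factors. RefSeq windows of build GRCh38.p14, 250 bases before to 50 after the start of the gene, were held for 41 of the 50 genes, and the first listed window was used for the 10 genes with several. A CHR element, TTTGAA or TTCGAA on either strand, was found in 28 of 41 windows (68.3%), against 11.2% of the 10080 windows of genes tested. The CCAAT box, CCAAT on either strand and the usual neighbour of a CHR, was in 29 windows (70.7%), against 36.5%. Sites read by GABP, ZNF143 and THAP11, proteins known to bind HCF-1, were searched too: the GABP/ETS site CCGGAAG was in 6 windows (14.6%, against 18.7%) and the ZNF143/THAP11 letters ACTACANNT in 1, that of BUB1B (2.44%, against 5.17%). An E2F site, TTTCGCGC or TTTGGCGC, was in the windows of CDK1 and NUSAP1 (4.88%, against 1.98%). Other forms of an E2F site were not searched, so a window without these letters may still hold one. When every listed window was read, 31 of the 41 genes held a CHR, against 15.7% of genes tested. A CHR was present in 8 of the 10 windows of genes that rose, in 3 of the 8 of genes that fell and in 17 of the 23 of genes that did not pass, which is a description of letters in a window and not of binding.

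Windows of 3 genes that rose and 3 that fell are shown 5′ to 3′ on the strand of the gene, to set a window with CHR and CCAAT letters beside windows without them, with each match to a searched motif in capitals. CENPE, CDC25B and MYBL2 come from a rule on the largest changes, and HMMR, ASPM and CDC20 were added after their values were seen. The rule also picked CASC5, the largest increase, for which no window was held. They lie at chr5:163460382-163460681 (HMMR, plus strand), chr1:197146620-197146919 (ASPM, minus strand), chr4:103198294-103198593 (CENPE, minus strand), chr1:43358731-43359030 (CDC20, plus strand), chr20:3786701-3787000 (CDC25B, plus strand) and chr20:43666864-43667163 (MYBL2, plus strand), each across the start of its gene.
HMMR: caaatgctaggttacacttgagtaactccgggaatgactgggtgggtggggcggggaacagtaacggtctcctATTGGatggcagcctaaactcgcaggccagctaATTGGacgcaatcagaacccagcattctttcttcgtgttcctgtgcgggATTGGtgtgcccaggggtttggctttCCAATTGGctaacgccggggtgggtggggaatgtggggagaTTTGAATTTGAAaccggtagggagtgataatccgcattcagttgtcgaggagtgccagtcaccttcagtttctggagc
ASPM: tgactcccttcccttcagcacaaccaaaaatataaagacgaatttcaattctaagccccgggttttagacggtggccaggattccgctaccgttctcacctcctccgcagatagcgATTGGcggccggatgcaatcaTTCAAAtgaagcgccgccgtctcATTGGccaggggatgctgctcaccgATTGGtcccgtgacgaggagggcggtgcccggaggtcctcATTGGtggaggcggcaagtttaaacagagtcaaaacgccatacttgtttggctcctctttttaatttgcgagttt
CENPE: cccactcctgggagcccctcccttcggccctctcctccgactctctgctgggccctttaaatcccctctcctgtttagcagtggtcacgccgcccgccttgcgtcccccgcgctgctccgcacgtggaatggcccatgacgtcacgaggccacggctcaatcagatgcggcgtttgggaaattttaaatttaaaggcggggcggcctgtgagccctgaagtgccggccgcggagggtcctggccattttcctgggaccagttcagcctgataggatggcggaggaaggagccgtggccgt
CDC20: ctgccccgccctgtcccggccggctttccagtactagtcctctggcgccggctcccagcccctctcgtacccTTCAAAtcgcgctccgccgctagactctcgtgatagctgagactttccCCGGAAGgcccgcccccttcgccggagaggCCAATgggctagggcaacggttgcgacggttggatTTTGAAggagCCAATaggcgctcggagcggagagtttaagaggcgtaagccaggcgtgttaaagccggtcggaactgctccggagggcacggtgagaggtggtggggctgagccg
CDC25B: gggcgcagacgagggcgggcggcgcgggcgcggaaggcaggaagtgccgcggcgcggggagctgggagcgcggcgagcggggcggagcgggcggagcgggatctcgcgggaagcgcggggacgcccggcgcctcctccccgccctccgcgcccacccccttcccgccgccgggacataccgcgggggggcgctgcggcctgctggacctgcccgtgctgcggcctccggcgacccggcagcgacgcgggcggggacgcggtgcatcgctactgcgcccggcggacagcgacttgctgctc
MYBL2: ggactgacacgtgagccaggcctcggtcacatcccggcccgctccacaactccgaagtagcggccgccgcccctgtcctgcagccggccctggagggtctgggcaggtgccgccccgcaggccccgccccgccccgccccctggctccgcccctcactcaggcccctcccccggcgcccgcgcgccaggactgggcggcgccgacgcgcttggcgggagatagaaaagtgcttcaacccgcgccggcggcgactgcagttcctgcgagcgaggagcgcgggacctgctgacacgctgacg
In HMMR 2 CHR elements lie end to end, starting 28 and 22 bases before the gene's start, behind 5 CCAAT boxes of which 2 overlap. ASPM has 1 CHR, on the opposite strand, among 4 CCAAT boxes. CDC20 has 2 CHR matches, 65 bases before its start and, on the opposite strand, 178 bases before it, with 2 CCAAT boxes, 100 and 55 bases before the start, and 1 GABP/ETS match between the CHR matches. None of the searched letters occur in the windows of CENPE, CDC25B or MYBL2, which says only that they are not in these 300 bases; CDC25B has other listed starts.

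Among the drivers of mitotic entry in the list, CDC25B fell and the cyclins and CDK1 stayed near their control levels. CDC25B, one of the phosphatases that activate CDK1, had 2111 to 3781 normalized counts (median 2765) in HCF-1 siRNA libraries, against 3591 to 4372 (median 3960) in control siRNA libraries. All but 1 HCF-1 siRNA library lay below the lowest control library. Its log2 fold change was -0.50 ± 0.09 (adjusted p = 2.65e-04), to 71.8% of the control mean. CCNB1, cyclin B1, had 4500 to 4869 normalized counts (median 4828) in HCF-1 siRNA libraries and 4828 to 5256 (median 5032) in control siRNA libraries. The groups met only at their edges, but the difference was small, -0.08 ± 0.03 (adjusted p = 0.0265). CCNB1 lost its call in 7 of 26 other settings, among them the removed length trend, where its value was -0.01, the replicate block and those without HCF-1 siRNA replicate 2 or 6 or control siRNA replicate 2 or 8 (adjusted p between 0.00312 and 0.86).

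CDK1 had 1576 to 3448 normalized counts (median 1884) in HCF-1 siRNA libraries, against 1733 to 2351 (median 2033) in control siRNA libraries. The groups overlapped throughout, and the HCF-1 siRNA mean was carried by replicate 7, without which the log2 fold change was -0.11 in place of 0.00 ± 0.13 (adjusted p = 0.99). The other members of the group did not pass. CCNA2, cyclin A2, and CCNB2, cyclin B2, had log2 fold changes of -0.09 ± 0.04 and -0.09 ± 0.05. CDC25C, a paralog of CDC25B, averaged 856 ± 91.2 normalized counts in HCF-1 siRNA and 857 ± 104 in control siRNA libraries (SD, n = 8 each). CKS1B and CKS2, small subunits that help cyclin-CDK complexes hold their substrates, had 0.05 ± 0.05 and 0.10 ± 0.04, and the second row named CKS1B had -0.00 ± 0.06. CCNA2 passed as lower with total-count scaling and without control siRNA replicate 6 (adjusted p from 0.0364 up to 0.749). CKS2 passed as higher in 5 settings: with DESeq2, with the length trend removed, and without HCF-1 siRNA replicate 3 or 6 or control siRNA replicate 5 (adjusted p 0.025 to 0.209).

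Of the other mitotic kinases, 3 of 4 rose by small amounts and PLK1 did not pass. NEK2, a kinase that helps centrosomes separate, had 1043 to 1411 normalized counts (median 1176) in HCF-1 siRNA libraries and 933 to 1176 (median 1049) in control siRNA libraries. PLK4, the kinase that starts centriole duplication, had 776 to 1071 (median 958) in HCF-1 siRNA and 776 to 894 (median 814) in control siRNA libraries. AURKA, Aurora A of the spindle poles, had 5816 to 6465 (median 6260) in HCF-1 siRNA and 5552 to 6134 (median 5812) in control siRNA libraries. In each case the groups overlapped, with 4 or 5 of the HCF-1 siRNA libraries above the highest control library. Log2 fold changes were 0.20 ± 0.07 for NEK2 (adjusted p = 0.0374), 0.17 ± 0.06 for PLK4 (adjusted p = 0.0488) and 0.10 ± 0.03 for AURKA (adjusted p = 0.0277). PLK1, which acts from mitotic entry to cytokinesis, had 7557 to 8954 normalized counts (median 7827) in HCF-1 siRNA and 7617 to 9011 (median 8461) in control siRNA libraries, nearly the same span. Its log2 fold change was -0.07 ± 0.05 (adjusted p = 0.273).

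These calls lay near the threshold, while the fold changes with any 1 library left out ran from 0.16 to 0.23 for NEK2, from 0.14 to 0.20 for PLK4 and from 0.09 to 0.11 for AURKA. PLK4 lost its call in 15 of 26 settings, among them edgeR, the replicate block and those without HCF-1 siRNA replicate 1, 2, 3, 5 or 8 or control siRNA replicate 2, 5, 6, 7 or 8 (adjusted p 0.011 to 0.13). AURKA lost it in 10, among them the replicate block, total-count scaling and those without HCF-1 siRNA replicate 1, 5, 7 or 8 or control siRNA replicate 5, 6 or 7 (adjusted p 0.00281 to 0.124). NEK2 lost it in 10, among them total-count scaling and those without HCF-1 siRNA replicate 2, 4, 7 or 8 or control siRNA replicate 1, 2, 6 or 7 (adjusted p 0.0123 to 0.0835).

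All 5 spindle checkpoint genes had positive values, and 1 passed. BUB1B, which encodes BubR1 of the complex that inhibits CDC20, had 2437 to 2960 normalized counts (median 2681) in HCF-1 siRNA libraries, against 1974 to 2468 (median 2271) in control siRNA libraries. Of the HCF-1 siRNA libraries 7 of 8 lay above the highest control library, a log2 fold change of 0.25 ± 0.05 (adjusted p = 0.00101). MAD2L1, which encodes the MAD2 protein of the same complex, had 1527 to 1994 (median 1762) in HCF-1 siRNA and 1392 to 1838 (median 1625) in control siRNA libraries. Its groups overlapped widely and it did not pass (0.12 ± 0.07, adjusted p = 0.185). The kinase genes BUB1 and TTK had 0.07 ± 0.06 and 0.16 ± 0.13, and BUB3, which brings BUB1 and BubR1 to kinetochores, had 0.06 ± 0.03 (adjusted p 0.174 to 0.346 for the 3).

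In the chromosomal passenger complex, which corrects faulty attachments and steers cytokinesis, both targeting subunits fell while the kinase and the scaffold did not pass. BIRC5, or survivin, had 4332 to 5658 normalized counts (median 5003) in HCF-1 siRNA libraries and 5498 to 6512 (median 5942) in control siRNA libraries. CDCA8, or borealin, had 1631 to 1820.1 (median 1737) in HCF-1 siRNA and 1801 to 2119 (median 1959) in control siRNA libraries. Of the HCF-1 siRNA libraries 6 of 8 for BIRC5 and 7 of 8 for CDCA8 lay below the lowest control library. Log2 fold changes were -0.24 ± 0.05 for BIRC5 (adjusted p = 0.00233) and -0.19 ± 0.04 for CDCA8 (adjusted p = 0.00131). AURKB, the kinase, and INCENP, the scaffold, had values of -0.01 ± 0.08 and -0.01 ± 0.05.

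Centromere and inner kinetochore genes changed little, with 1 of 6 called. CENPH, a subunit of the network on centromeric chromatin, had 374 to 555 normalized counts (median 471) in HCF-1 siRNA and 463 to 761 (median 576) in control siRNA libraries. The groups overlapped, with 4 of 8 HCF-1 siRNA libraries below the lowest control library (-0.29 ± 0.11, adjusted p = 0.0445). CENPH lost its call in 13 of 26 settings, among them the replicate block, the removed length trend and those without HCF-1 siRNA replicate 1, 3, 5, 6 or 7 or control siRNA replicate 1, 2, 3, 4 or 7 (adjusted p 0.0238 to 0.164). CENPA, the centromeric histone H3, averaged 823 ± 71.5 normalized counts in HCF-1 siRNA and 858 ± 31.7 in control siRNA libraries and did not pass (-0.06 ± 0.06). CENPM varied most of the 6, from 239 to 678 in HCF-1 siRNA and from 402 to 738 in control siRNA libraries, so its value of -0.34 ± 0.18 did not pass (adjusted p = 0.159). CENPI, CENPK and CENPN had 0.04 ± 0.10, 0.17 ± 0.12 and -0.12 ± 0.06.

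The outer kinetochore divided, with 3 genes of large proteins higher and 1 small subunit of the NDC80 complex lower. CASC5, now named KNL1, is the scaffold on which the checkpoint proteins gather. It had 1033 to 2590 normalized counts (median 1730) in HCF-1 siRNA libraries and 237 to 1697 (median 868) in control siRNA libraries. Libraries of either group were scattered, and 4 of 8 HCF-1 siRNA libraries lay above the highest control library. Its log2 fold change was 1.11 ± 0.38 (adjusted p = 0.0316). CASC5 lost its call in 10 of 26 settings, among them edgeR and those without HCF-1 siRNA replicate 1, 4, 7 or 8 or control siRNA replicate 2, 4, 5 or 7 (adjusted p 0.0144 to 0.0959, log2 fold change 0.87 to 1.28), so its size is uncertain.

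CENPE, a motor protein that carries chromosomes to the spindle equator, had 752 to 1414 normalized counts (median 903) in HCF-1 siRNA libraries and 382 to 1045 (median 498) in control siRNA libraries. Control siRNA replicates 1 and 2 were at 1045 and 997, among the HCF-1 siRNA values, and the 6 other control libraries lay below every HCF-1 siRNA library. Its log2 fold change was 0.75 ± 0.21 (adjusted p = 0.00882). CENPF, a large protein of the outer kinetochore, had 4761 to 6156 normalized counts (median 5320) in HCF-1 siRNA and 3504 to 5229 (median 3843) in control siRNA libraries. Here 7 of 8 control libraries lay below every HCF-1 siRNA library, with a log2 fold change of 0.40 ± 0.07 (adjusted p = 3.12e-04).

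SPC24, a subunit of the NDC80 complex that binds spindle fibres, had 441 to 633 normalized counts (median 535) in HCF-1 siRNA and 576 to 769 (median 621) in control siRNA libraries. Of its HCF-1 siRNA libraries 6 of 8 lay below the lowest control library (-0.25 ± 0.08, adjusted p = 0.0158), and SPC24 no longer passed once the length trend was removed (adjusted p = 0.0653). The other 3 subunits of that complex did not pass, with -0.08 ± 0.07 for NDC80, 0.10 ± 0.22 for NUF2 and -0.06 ± 0.10 for SPC25. NUF2 ran from 512 to 1055 in HCF-1 siRNA and from 409 to 1270.0 in control siRNA libraries. ZWINT, a partner of CASC5, had 0.01 ± 0.05.

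Among APC/C regulators, securin and CDC20 fell, and the later activator and the inhibitor did not pass. PTTG1, securin, which holds back the protease that parts sister chromatids, had 2162 to 2395 normalized counts (median 2297) in HCF-1 siRNA libraries and 2586 to 2871 (median 2689) in control siRNA libraries. The groups did not overlap, with a log2 fold change of -0.23 ± 0.04 (adjusted p = 7.09e-05). CDC20, the activator at the start of anaphase, had 3527 to 4388 (median 4016) in HCF-1 siRNA and 4012 to 4916 (median 4450) in control siRNA libraries. Of its HCF-1 siRNA libraries 3 of 8 lay below the lowest control library, and the change was -0.15 ± 0.05 (adjusted p = 0.0215), lost without a filter and with the length trend removed (adjusted p 0.00672 to 0.293 over the settings). FZR1, or CDH1, the activator of late mitosis and G1, had 1293 to 1679 (median 1500) in HCF-1 siRNA and 1323 to 1626 (median 1514) in control siRNA libraries. The spans were alike, with a log2 fold change of -0.01 ± 0.06 (adjusted p = 0.903). FBXO5, or EMI1, an APC/C inhibitor, had 0.10 ± 0.08 (adjusted p = 0.358).

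Of 9 spindle, chromosome and cytokinesis genes 5 rose and 1 fell. ASPM, a spindle pole protein, had 984 to 1450 normalized counts (median 1320) in HCF-1 siRNA libraries and 684 to 1063 (median 812) in control siRNA libraries. All but 1 HCF-1 siRNA library lay above the highest control library (0.60 ± 0.10, adjusted p = 1.19e-04). HMMR, a spindle protein and hyaluronan receptor, had 1003 to 1654 (median 1147) in HCF-1 siRNA and 680 to 997 (median 854) in control siRNA libraries. The groups did not overlap for HMMR, whose window with 2 CHR elements is printed above (0.52 ± 0.10, adjusted p = 8.50e-04). ANLN, anillin of the cleavage furrow, had 4206 to 5133 (median 4521) in HCF-1 siRNA and 3244 to 4384 (median 3936) in control siRNA libraries, with 6 of 8 HCF-1 siRNA libraries above the control range (0.26 ± 0.06, adjusted p = 0.0038).

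MKI67, the coat of mitotic chromosomes used as a proliferation marker, had 7935 to 12287 normalized counts (median 9459) in HCF-1 siRNA libraries and 6517 to 9026 (median 7638) in control siRNA libraries. TOP2A, the topoisomerase that untangles chromosomes, had 17755 to 28566 (median 22135) in HCF-1 siRNA and 15328 to 22313 (median 18708) in control siRNA libraries. Both overlapped between the groups, with 5 and 3 of 8 HCF-1 siRNA libraries above the highest control library. Log2 fold changes were 0.32 ± 0.09 for MKI67 (adjusted p = 0.0114) and 0.27 ± 0.09 for TOP2A (adjusted p = 0.0255). MKI67 lost its call with the length trend removed (adjusted p = 0.0632), and TOP2A lost it in 4 settings, without a filter and without HCF-1 siRNA replicate 8 or control siRNA replicate 6 or 7 (adjusted p 0.00692 to 0.0724). PRC1, which bundles the fibres of the central spindle, averaged 4003 ± 206 in HCF-1 siRNA and 4336 ± 206 in control siRNA libraries (SD, n = 8 each; -0.12 ± 0.04, adjusted p = 0.0268). PRC1 lost its call in 4 settings, among them the replicate block and those without HCF-1 siRNA replicate 2 or control siRNA replicate 5 (adjusted p 0.00838 to 0.0851). TPX2, NUSAP1 and ECT2 did not pass (-0.05 ± 0.03, 0.00 ± 0.07 and -0.00 ± 0.09), and TPX2 passed as lower with total-count scaling (adjusted p = 0.0482). In annotation of another build 57.6% of the exonic length of PRC1 and 62.2% of that of NUSAP1 is shared with other genes on the same strand, so reads may have been split or dropped there.

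**Figure D2:**
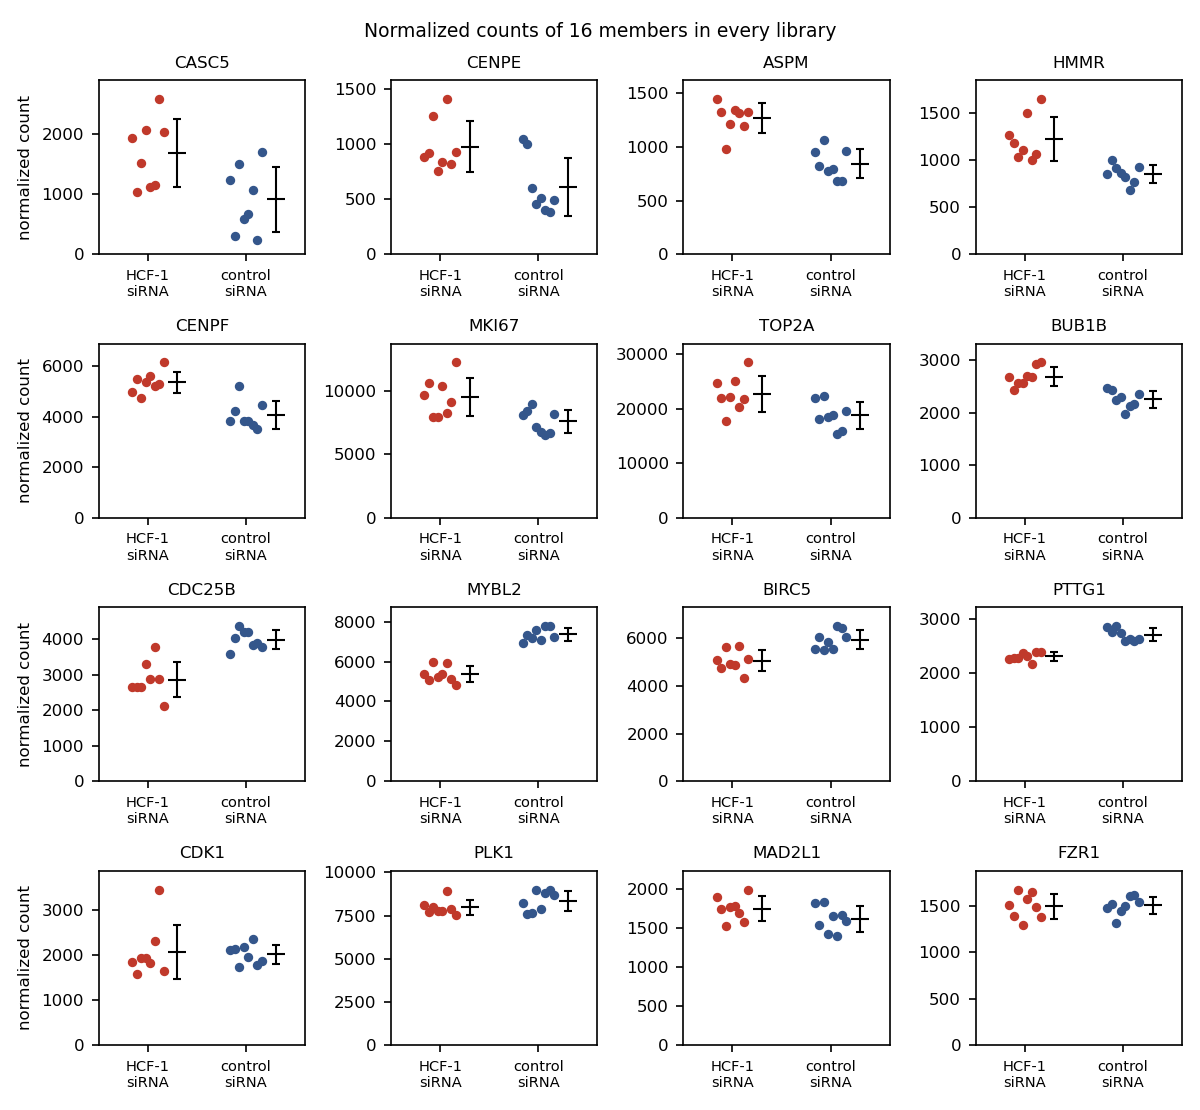
Normalized count (vertical axes, from 0) of 16 of the genes in each HCF-1 siRNA library (red, left) and each control siRNA library (blue, right); black marks give the mean and SD of 8 libraries. HMMR, MYBL2 and PTTG1 show no overlap between the groups, CASC5 and CENPE are scattered in the control libraries, and 1 CDK1 library at 3448 stands above the rest.

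Both transcription factors of the program fell. MYBL2, which encodes B-MYB, had 4843 to 5974 normalized counts (median 5293) in HCF-1 siRNA libraries and 6932 to 7782 (median 7258) in control siRNA libraries. The gap between the groups was wide and no library crossed it, at 72.9% of the control mean and a log2 fold change of -0.46 ± 0.04 (adjusted p = 6.60e-07). FOXM1 had 3004 to 3280 (median 3156) in HCF-1 siRNA and 3308 to 3767 (median 3465) in control siRNA libraries. Its groups stood just apart, at 89.2% of the control mean and -0.16 ± 0.04 (adjusted p = 0.00132). FOXM1 shares 15.9% of its exonic length with a gene on the opposite strand. No source used here gives the strand setting of the counting, so reads of these 2 genes may be mixed. Opposite-strand overlap was 22.8% for CENPN and 12.5% for PLK1, with the same limit. BUB1B shares 10.2% of its exonic length with a gene on the same strand, so reads may have been split or dropped there.

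The roles differed in their typical change. The median log2 fold change was -0.31 for the transcription factors, -0.10 for the passenger complex, -0.09 for the inner kinetochore, -0.08 for APC/C regulators and securin and -0.04 for cyclin-CDK1 and its activators. It was 0.06 for the outer kinetochore, 0.12 for the checkpoint, 0.13 for the kinases and 0.26 for the spindle, chromosome and cytokinesis genes. The small medians were unstable: with 1 library left out that of the outer kinetochore ran from 0.01 (without control siRNA replicate 6) to 0.12 (without control siRNA replicate 3), and that of cyclin-CDK1 from -0.08 (without HCF-1 siRNA replicate 7) to -0.01 (without HCF-1 siRNA replicate 2). The cyclin-CDK1 median was 0.01 with the length trend removed, and the checkpoint median was 0.08 without HCF-1 siRNA replicate 4. Per-library medians of the transcription factors ran from -0.36 to -0.22 in HCF-1 siRNA libraries and from -0.03 to 0.03 in control siRNA libraries, without overlap. Those of the spindle group ran from 0.07 to 0.36 in HCF-1 siRNA and from -0.21 to 0.11 in control siRNA libraries, with overlap. No test of the difference between roles was made.

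Pairs of related or partner genes gave a direct comparison of unequal response, since the log2 ratio of 2 genes in a library does not depend on its scaling. In 8 pairs tested by a two-sided exact permutation test over the 16 libraries, with adjustment over the 8 pairs, 4 ratios differed between the groups. The CDC25B to CDC25C ratio averaged 1.73 ± 0.33 in HCF-1 siRNA and 2.22 ± 0.25 in control siRNA libraries (log2, SD, n = 8 each), a difference of -0.49 ± 0.15 (SE; exact p = 0.00404, adjusted p = 0.0232). The BUB1 to BUB1B ratio was lower by -0.18 ± 0.06 (exact p = 0.0087, adjusted p = 0.0232), and that of CDC20 to FZR1 by -0.14 ± 0.04 (exact p = 0.00777, adjusted p = 0.0232). The PLK1 to PLK4 ratio differed by -0.23 ± 0.09 (exact p = 0.0225, adjusted p = 0.0451) and lost its call without HCF-1 siRNA replicate 1, 2, 3, 4, 5, 7 or 8 or control siRNA replicate 2, 4, 5, 6, 7 or 8 (adjusted p 0.00995 to 0.088). The groups overlapped in each pair. Ratios were not tested with the length trend removed. As single genes with that trend removed, CDC20 had a log2 fold change of -0.06 and FZR1 -0.03. The values were 0.05 for BUB1 and 0.27 for BUB1B, -0.47 for CDC25B and 0.05 for CDC25C, and -0.06 for PLK1 and 0.18 for PLK4. No difference was detected for CCNB1 to CCNB2 (0.00 ± 0.05, exact p = 0.926), CKS1B to CKS2 (-0.06 ± 0.04, exact p = 0.115), AURKA to AURKB (0.11 ± 0.08, exact p = 0.22) or SPC24 to SPC25 (-0.20 ± 0.15, exact p = 0.198), which does not show that these pairs responded alike.

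**Figure D3:**
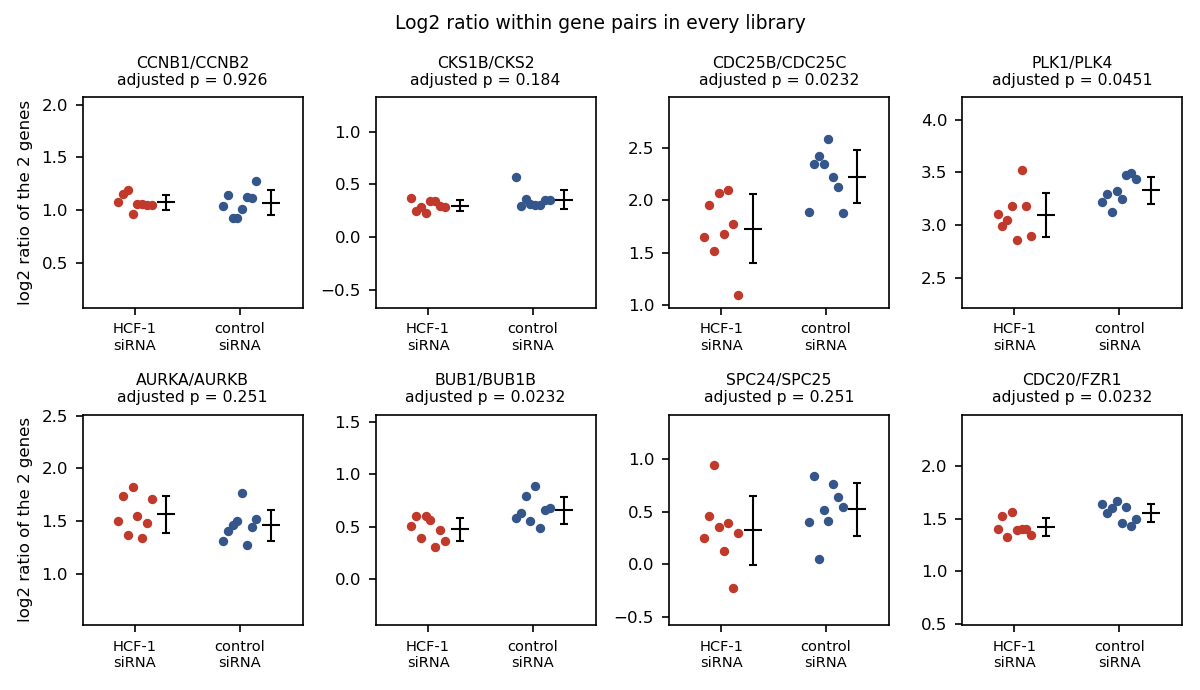
Log2 ratio of the normalized counts of 2 genes (vertical axes, each spanning 2 log2 units) in each HCF-1 siRNA library (red, left) and each control siRNA library (blue, right) for 8 pairs; black marks give mean and SD, and adjusted p-values are from the exact permutation test. The ratios of CDC25B to CDC25C, PLK1 to PLK4, BUB1 to BUB1B and CDC20 to FZR1 sit lower in HCF-1 siRNA libraries, with overlap.

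Gene length and base composition went along with direction among the 50. Genes that rose had a median exonic length of 6.22 kb and a median GC content of 39.6%, those that fell 2.78 kb and 52.2%, and those that did not pass 3.6 kb and 42.5%. Of the 6 genes of 8 kb or more, CASC5, CENPE, CENPF, ASPM and MKI67 rose and BUB3 did not pass. The median log2 fold change of these 6 was 0.50. Of the 24 genes of 2 to 4 kb, AURKA, NEK2 and HMMR rose and 8 fell, with a median of -0.06. Across the 50 genes the log2 fold change had a Pearson r of 0.57 and a Spearman rho of 0.57 with log2 length, and an r of -0.61 and a rho of -0.71 with GC content; genes of 1 library set are not independent, so these describe the list. Without CASC5 and CENPE the r with length was 0.48. The same direction was present in the whole table but weaker, with r = 0.11 for length and -0.19 for GC over 15541 genes.

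All genes tested of 8 kb or more had a median log2 fold change of 0.11, with 27.6% called higher and 9.82% lower, and those of 2 to 4 kb a median of -0.07, with 13.8% higher and 26% lower. With each library's trend on length removed, 12 of the 50 were called higher and 7 lower, with CKS2 (0.13) gained among the higher and MKI67 (0.20, adjusted p = 0.0632) lost. The lower calls of CCNB1, CENPH, SPC24 and CDC20 were lost. The other long genes CASC5, CENPE, CENPF and ASPM then had log2 fold changes of 1.01, 0.66, 0.29 and 0.49. Of the genes that fell, MYBL2 had -0.39, CDC25B -0.47, CDCA8 -0.11, PTTG1 -0.15, CDC20 -0.06 and CCNB1 -0.01, so the values of the last 4 shrank by over 1.5 times. AURKA moved the other way, to 0.16. The part of length or base composition in the remaining values was not tested.

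**Figure D4:**
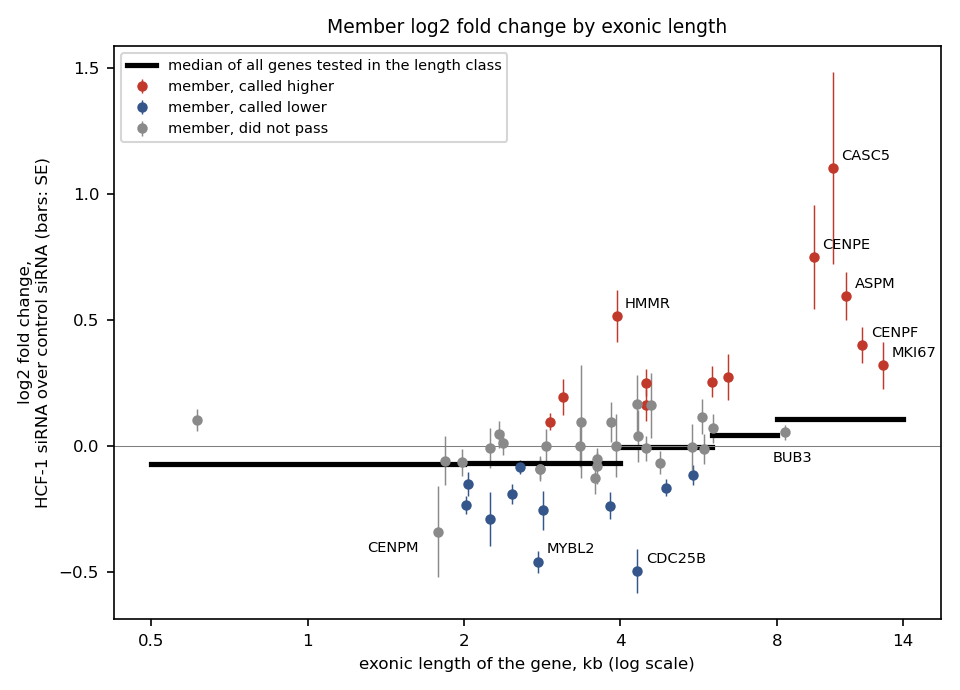
Log2 fold change of HCF-1 siRNA over control siRNA (vertical axis; bars are the SE) against exonic length in kb (horizontal log axis) for the 50 genes, coloured by call; black lines give the median of all genes tested in 5 length classes. The 5 genes of 9 kb or more lie between 0.32 and 1.11, above the median of 0.11 of all genes tested of 8 kb or more. BUB3, at 8.3 kb, lies below that median at 0.06. HMMR stands out among the shorter genes.

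Levels set per kb of exon show which of these messages were abundant. TPX2, a spindle assembly factor, had 3185 normalized counts per kb in HCF-1 siRNA and 3298 in control siRNA libraries, CKS2 had 3406 in HCF-1 siRNA and 3166 in control siRNA libraries, and TOP2A had 3545 in HCF-1 siRNA and 2927 in control siRNA libraries. At the low end were CENPI with 62.2 in HCF-1 siRNA and 61 in control siRNA, CENPE with 103 in HCF-1 siRNA and 64.5 in control siRNA, and ASPM with 116 in HCF-1 siRNA and 77.5 in control siRNA libraries. The genes with the 3 largest increases, CASC5, CENPE and ASPM, were thus among the scarcer messages of the list on this scale.

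Among 128 other genes of the same machinery and of the preceding G1/S step, in 7 lists, 22 were higher (17.2%) and 27 lower (21.1%), beside 18.2% and 18.3% of all genes tested, and the lists differed from each other. Of 17 APC/C subunits and E2 enzymes 3 rose and 6 fell (35.3%). ANAPC11, the RING subunit, fell to 1249 ± 77.2 normalized counts in HCF-1 siRNA libraries, against 1747 ± 114 in control siRNA libraries (SD, n = 8 each; -0.48 ± 0.05, adjusted p = 1.35e-06), and UBE2D1, a ubiquitin-conjugating enzyme, fell too (-0.53 ± 0.08). Of 30 other kinetochore and centromere genes 5 rose, among them CENPJ (0.67 ± 0.19), a centriole protein, and 5 fell, among them CENPP (-0.64 ± 0.11). Of 17 condensin, cohesin and separase genes 5 rose and 1 fell. SMC4, a condensin core subunit, averaged 3315 ± 396 in HCF-1 siRNA and 2112 ± 418 in control siRNA libraries (0.67 ± 0.11, adjusted p = 1.03e-04), and ESPL1, separase, the protease that securin restrains, rose as well (0.42 ± 0.10).

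Of 11 MuvB, DREAM and E2F repressor genes 2 rose, among them LIN54 (0.32 ± 0.11, adjusted p = 0.0331), the subunit that reads CHR elements, and TFDP1 (-0.26 ± 0.03), the dimer partner of E2F factors, fell. LIN54 passed in 16 of 26 other settings and was lost in 10: with no filter, with total-count scaling, with the length trend removed, and without HCF-1 siRNA replicate 1, 2, 4 or 8 or control siRNA replicate 2, 6 or 7 (adjusted p 0.01 to 0.0673). Of 16 entry and exit regulators 3 rose and 2 fell. The 2 kinases that inhibit CDK1 went opposite ways, with WEE1, named after its value was seen, higher (0.29 ± 0.07, adjusted p = 0.00433) and PKMYT1 lower (-0.35 ± 0.08). The other gene that fell was CDKN3 (-0.33 ± 0.06), a phosphatase of CDKs. Of 15 spindle pole and centrosome genes 3 rose and 2 fell. PCNT (0.77 ± 0.14), pericentrin, and SASS6 (0.28 ± 0.09), a centriole protein, had the largest called increases. CEP152 had a larger value than SASS6 but did not pass (0.45 ± 0.47). Of 22 G1/S genes 1 rose and 10 fell (45.5%), led by GINS2 (-0.54 ± 0.05) and TK1 (-0.45 ± 0.06), with a median log2 fold change of -0.17 beside the 0.00 of the 50 genes of G2 and mitosis. The difference between those medians was not tested. These small counts moved with the setting: over the 26 alternatives MuvB genes called higher ranged from 0 to 2, spindle pole genes called lower from 1 to 2, other kinetochore genes called lower from 3 to 7 and condensin, cohesin and separase genes called higher from 4 to 7. Entry and exit regulators called higher ranged from 3 to 7, with 7 when the length trend was removed and 5 without HCF-1 siRNA replicate 2 or 8, and no G1/S gene was called higher without control siRNA replicate 7.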

How the data were processed

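RNA from 8 HCF-1 siRNA and 8 control siRNA cultures of HepG2 cells was sequenced as TruSeq Stranded mRNA libraries, per the labels. The authors deposited the data as a signal, read counts divided by size factors, for each Ensembl gene. The submitters' processing notes name cutadapt (1.4.2), STAR (2.4.1d), featureCounts (1.4.4), DESeq2 (1.16.1) and the hg19 build. No source used here states the annotation release, strand setting or filters. Division by the smallest step of a library turned 100% of its values into whole reads, within 0.001. The column of HCF-1 siRNA replicate 1 lacks a digit in its name and was matched by group and number.

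limma 3.58.1 in R 4.3.3 (trend and robust options) was run on log2(normalized count + 1) over all 16081 genes with a mean of 10 or more, which understates changes of low genes, and called genes at an adjusted p of 0.05. On the recovered reads edgeR 4.0.16 called 2809 genes higher and 3066 lower, and DESeq2 1.42.0 called 3160 higher and 3098 lower. Exonic length and GC content came from GENCODE release 29 of another build, by identifier, for 15541 of the genes tested. Promoters came from RefSeq.

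All 50 genes may be named; lowest, median and highest values are given for up to 3 called genes per role whose mean reached 50 in either group and for CDK1, CCNB1, PLK1, MAD2L1, CDC20, FZR1, FOXM1, MYBL2, TOP2A and MKI67, and up to 2 called genes per other list are named. Of the called genes of those lists, WEE1 and CDC25A were named beyond that rule, after their values were seen. The members and lists were chosen with earlier results of these data known. Alternatives were pseudocounts of 0.5 and 10, no filter or a mean of at least 50, scaling by upper quartile or by total, edgeR, DESeq2, a replicate block and leaving out any 1 library; removing each library's loess trend on length was added after seeing the data. The limma step was also run on simulated counts with the same dispersion for every gene. The 50 genes differed in their spread, so that run does not speak to calls near the threshold.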

Additional observations from a re-analysis of the deposited data

Results flagged for a closer look

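In 6 of 130 groups of 8 libraries examined, 1 library lay apart from the other 7, by a gap to its neighbour that took up most of the group's span; chance alone picks about 1 in 20 groups. In normalized counts, CDK1 stood at 3448 in replicate 7 of HCF-1 siRNA, with the others at 1577 to 2301. PLK1 had 8954 in HCF-1 siRNA replicate 6, against 7557 to 8125. CKS1B had 2960 in control siRNA replicate 1, against 2303 to 2577. BUB3 had 3398 in control siRNA replicate 7, against 3662 to 3858. TTK had 809 in control siRNA replicate 8, against 514 to 649. SPC25 had 608 in control siRNA replicate 3, against 390.1 to 465.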

How the results depend on the processing

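Of 1300 values of single genes of the list under the alternatives, 1157 kept direction and call, 77 lost the call, 8 gained one and 58 changed sign. All sign changes were in genes that did not pass. They were AURKB (-0.058 to 0.033 with 1 library left out, 0.075 with the length trend removed), CDC25C (-0.039 to 0.045, and 0.051), INCENP (-0.027 to 0.015, and 0.008), SPC25 (-0.096 to 0.009, and 0.032), CDK1 (-0.109 to 0.052, -0.001 with upper-quartile and -0.026 with total-count scaling), NUSAP1 (-0.029 to 0.037, -0.001 and -0.025 with these scalings, -0.009 with edgeR), ZWINT (-0.006 to 0.033, -0.015 with total-count scaling), ECT2 (-0.046 to 0.04, 0.004 with DESeq2), CENPI (-0.017 to 0.092) and FZR1 (-0.037 to 0.019). With the length trend removed CENPA was at 0.023, BUB3 at -0.013 and the cyclin-CDK1 median at 0.013. Genes called higher were 12 (7 without a filter, 7 to 13 with 1 library left out), and genes called lower were 11 (7 without a filter, 7 with the length trend removed, 9 to 12 with 1 library left out). Without a filter more genes share the adjustment. HCFC1 stayed at -0.639 to -0.567 with 1 library left out. The ratio of CCNB1 to CCNB2 ran from -0.016 to 0.034, that of PLK1 to PLK4 from -0.292 to -0.196 with the call lost in 13 of 18 alternatives; the cause was not tested. The other 6 ratios kept their side of the threshold in the alternatives run.

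Same-numbered libraries of the groups did not deviate together (correlations -0.117 to 0.122, with 2 of 8 HCF-1 siRNA libraries correlating best with their own number). No pairing by number was thus seen, but weak correlations cannot show that same-numbered cultures were handled apart. With the replicate block 10 of the 50 genes were higher and 8 lower. P-values set the difference between the groups against the spread between these cultures. The scarcest gene of the list, CENPI, averaged 269 normalized counts in HCF-1 siRNA and 264 in control siRNA libraries. Its SD within a group was 0.21 on the log2 scale, above the median of 0.14 of the 50 genes. CASC5 (0.82) and NUF2 (0.49), with higher means, were looser. The part of depth in precision and in the calls was not tested.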
